A study of Mus musculus with 6 samples.

Results

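Oxidative phosphorylation genes were examined in aortas (arch and thoracic part) of mice with and without the microRNA gene Mir26b. They were chosen by name alone. Every row was taken whose symbol starts with Nduf, Uqcr, Atp5, mt-Nd, mt-Co, mt-Cytb or mt-Atp, starts with Cox and a number from 4 to 8, or is one of the 4 Sdh subunit symbols. This gave 127 of the 36557 rows, with 123 symbols. They were 76 nuclear subunits of general form, 13 mitochondrially encoded subunits, 8 tissue-restricted isoforms, 8 complex I assembly factors, the supercomplex factor Cox7a2l and 17 gene copies, 15 of them annotated as processed pseudogenes.

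The knockout group was Apoe-/- MiR26b-/- (3 libraries) and the control group was Apoe-/- with Mir26b intact as far as the labels state (3 libraries). All 6 samples therefore lacked Apoe, the apolipoprotein that clears cholesterol-rich lipoproteins, and all came from animals on a high-fat diet for 4 weeks. The labels give no age, sex or cell type for the deletion, and do not state whether libraries came from different animals. The p-values therefore rest on library-to-library spread, which may be technical. Mir26b has no row in the deposited tables, and the deletion itself was not checked here.

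Oxidative phosphorylation is the final stage of respiration in the inner mitochondrial membrane. Complex I takes electrons from NADH and complex II from succinate, complex III passes them to cytochrome c, and complex IV hands them to oxygen. The proton gradient built by complexes I, III and IV drives ATP synthase, complex V. Most subunits are encoded in the nucleus, while a small core of complexes I, III, IV and V is encoded by mitochondrial DNA. Brown fat, heart and skeletal muscle are rich in mitochondria, and brown fat lies around the mouse thoracic aorta. Several complex IV subunits exist in a general form and in a form restricted to such tissues.

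Levels are given in 2 ways. CPM is the estimated count scaled to a common library size by the TMM method and is used to compare libraries. The rescaled TPM, a value per transcript length deposited by the authors, is used to compare genes. The libraries held 51634139 to 54817547 estimated counts.

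Some libraries stood apart from others of their group. Knockout replicate 3 differed more from the other knockout libraries (mean chi-square per gene 98.8 and 111) than those differed from each other (12.2). All 10 brown fat markers were detected. Their summed level was 146, 203 and 823 TPM in knockout replicates 1, 2 and 3, against 1161, 571 and 272 TPM in control replicates 1, 2 and 3, and 0 of 10 passed the test. All 10 macrophage markers rose in the knockout group, with a summed level of 5266, 5834 and 2028 TPM, against 996, 961 and 758 TPM in controls. Of 8 smooth muscle markers, 4 fell, and their summed level was 19035, 17617 and 20414 TPM in knockouts against 25798, 25375 and 29550 TPM in controls. Of 6 fibroblast markers, 3 rose (Pdgfra, Dcn and Lum), and their list had a median log2 difference of 0.41. Of 6 endothelial markers 1 rose (Cdh5), and of 8 tested skeletal muscle markers 1 rose (Tnni2). Over all tested rows 6.5% were called higher and 3.84% lower. With the fat covariate described below, 0 genes of these marker lists were called, where 1.71% of all rows were, against 10.3% without it. The sizes changed less. The list median went from 1.79 to 1.40 for macrophage, from -0.52 to -0.49 for smooth muscle and from 0.407 to 0.411 for fibroblast markers. In tissue RNA, fewer cells of a type and less RNA per cell cannot be told apart.

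No oxidative phosphorylation gene passed the test between the groups. Of 106 tested symbols, edgeR's quasi-likelihood test called 0 at an adjusted p under 0.05, where 10.3% of the 17392 tested rows were called, 6.5% higher and 3.84% lower. At an unadjusted p under 0.05 there were 3 members, Cox7a2l, Ndufaf4 and Ndufaf8, against 30.7% of all rows. DESeq2 called 1 member, Cox7a2l, where it called 19.8% of all rows, 12% higher and 7.8% lower. limma on log2(TPM + 1) called 0, where it called 4.4% of rows, 2.81% higher and 1.59% lower. The groups did not overlap for 5 of the 106 members, against 36.1% of all rows, and for 0 of the 76 general nuclear subunits.

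The direction was nevertheless shared. The log2 difference, knockout over control, was below 0 for 92 of 106 members, with a median of -0.13, while the median of all tested rows was 0.00 and 50.6% of them were below 0. Members are not independent of each other, and this count carries no test. It was 62 of 106, with a median of -0.03, without control replicate 1, and 97 of 106, with a median of -0.23, without knockout replicate 3.

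**Figure D1:**
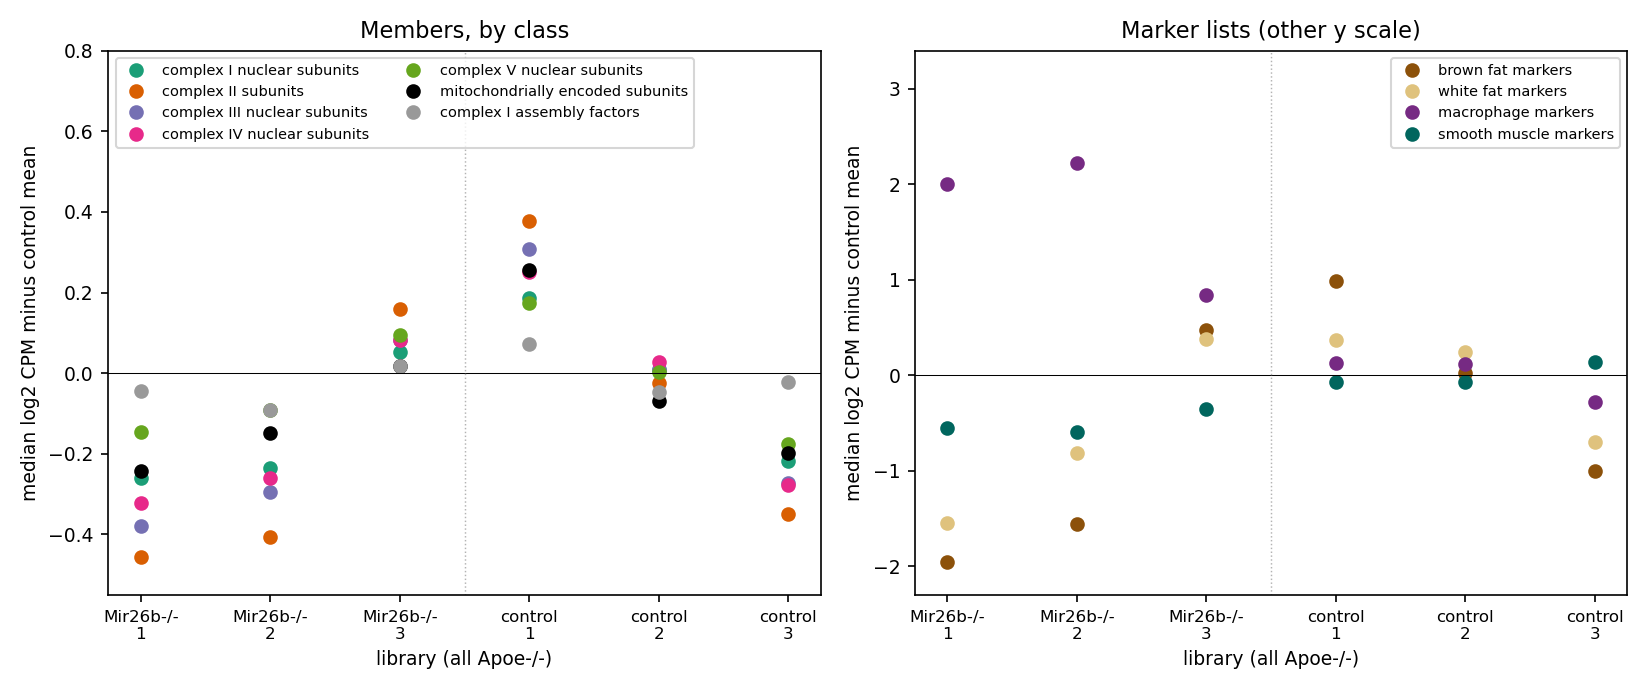
Median log2 CPM of each class of oxidative phosphorylation gene (left) and of each marker list (right), relative to the control mean, in each library; points are medians over the tested genes of a class and the y scales differ. Within each group the 6 classes of subunits shown are ordered by library like the brown fat markers, with knockout replicate 3 and control replicate 1 at the top of their group. The assembly factors are not ordered so, and macrophage markers are high in all 3 knockout libraries.

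Complex I, the largest complex, had 36 nuclear subunits and none passed the test. Their log2 differences lay between -0.35 and 0.03, with a median of -0.15, and 33 of 36 were below 0. Ndufv3, an accessory subunit and the most abundant nuclear one per length at a mean of 317 TPM, had 97.0, 90.0 and 111 CPM in knockouts against 112, 108 and 108 CPM in controls. The gene's log2 difference was -0.14 (SE 0.08, edgeR adjusted p = 0.303). Ndufa7, another accessory subunit, had 51.96, 51.8 and 59.1 CPM in knockouts against 56.4, 54.9 and 50.8 CPM in controls, a log2 difference of 0.01 (SE 0.07). Knockout replicate 3 lay within the control range for Ndufv3 and above all controls for Ndufa7.

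The complex I subunits of lowest p were Ndufb3 and Ndufa12, both accessory. Ndufb3 had 48.0, 48.2 and 60.4 CPM in knockouts against 68.2, 62.4 and 54.2 CPM in controls, a log2 difference of -0.24 (SE 0.12, edgeR adjusted p = 0.236). Ndufa12 had 51.3, 49.4 and 58.6 CPM in knockouts against 62.3, 59.9 and 55.3 CPM in controls, a log2 difference of -0.16 (SE 0.08, edgeR adjusted p = 0.25). In each, knockout replicates 1 and 2 were below all controls and knockout replicate 3 was not. The 7 nuclear subunits of the catalytic core, which carry the flavin and iron-sulfur centres, had a median log2 difference of -0.24, and the 29 accessory subunits one of -0.13.

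All 4 subunits of complex II, succinate dehydrogenase, had differences below 0, with a median of -0.24. Sdha, the flavoprotein that oxidises succinate, had 223, 232 and 390 CPM in knockouts against 470, 343 and 275 CPM in controls. This made a log2 difference of -0.37 (SE 0.28, edgeR adjusted p = 0.416). Sdhb, the iron-sulfur subunit, had 78.8, 81.7 and 126 CPM in knockouts against 146, 111 and 84.9 CPM in controls, a log2 difference of -0.25 (SE 0.25). Sdhc, which anchors the enzyme in the membrane, had 106, 103 and 132 CPM in knockouts against 149, 131 and 121 CPM in controls, a log2 difference of -0.24 (SE 0.12, edgeR adjusted p = 0.231). For these genes, knockout replicates 1 and 2 were the 2 lowest libraries, and the groups overlapped through knockout replicate 3. Sdhd, the other anchor, spanned 72.5 to 113 CPM in knockouts and 76.9 to 125 CPM in controls.

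Complex III had 8 nuclear subunits, all with differences below 0, between -0.44 and -0.06, with a median of -0.21. Uqcrc1, a core protein of the matrix side, had 91.6, 94.0 and 155 CPM in knockouts against 199, 150 and 113 CPM in controls, summed over its 2 rows. Its log2 difference was -0.44 (SE 0.27, edgeR adjusted p = 0.326), the lowest of any general subunit. Uqcrb, the ubiquinone-binding protein, had 73.2, 71.6 and 91.2 CPM in knockouts against 104, 91.4 and 76.7 CPM in controls, a log2 difference of -0.21 (SE 0.14). Uqcrh, the hinge protein and the most abundant nuclear subunit of the complex per length at a mean of 511 TPM, had 95.9, 94.6 and 114 CPM in knockouts against 120, 106 and 89.7 CPM in controls, a difference of -0.06 (SE 0.12). For Uqcrh the lowest library was control replicate 3. Uqcr10, a small subunit near cytochrome c1, spanned 51.0 to 68.2 CPM in knockouts and 54.1 to 74.4 CPM in controls.

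Complex IV, cytochrome c oxidase, had 11 general nuclear subunits, all below 0, with a median of -0.16 and a range from -0.41 to -0.13. Cox6a1, the general form of the regulatory subunit 6A, had 133, 135 and 198 CPM in knockouts against 242, 210 and 166 CPM in controls. The gene's log2 difference was -0.41 (SE 0.20, edgeR adjusted p = 0.221). Cox4i1, the largest nuclear subunit of the enzyme and the most abundant one per length at 851 TPM, had 231, 244 and 301 CPM in knockouts against 344, 290 and 248.5 CPM in controls. This made a log2 difference of -0.19 (SE 0.15, edgeR adjusted p = 0.438). Cox7c, a small structural subunit, had 94.1, 95.02 and 112 CPM in knockouts against 125, 115 and 95.03 CPM in controls, a difference of -0.16 (SE 0.12). Control replicate 1 was the highest library for 11 of the 11.

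Complex V, ATP synthase, differed least. Its 17 nuclear subunits lay between -0.39 and 0.10, with a median of -0.07, and 15 of 17 were below 0. Atp5b, the catalytic beta subunit, had 495, 536 and 839 CPM in knockouts against 1047, 778 and 628 CPM in controls. Its log2 difference was -0.39 (SE 0.26, edgeR adjusted p = 0.355). Atp5a1, the alpha subunit, had 444, 448 and 638 CPM in knockouts against 765, 600 and 522 CPM in controls, summed over its 2 rows, a difference of -0.30 (SE 0.19). Atp5e, the small epsilon subunit, went the other way with 72.6, 80.1 and 84.7 CPM in knockouts against 80.8, 75.4 and 66.1 CPM in controls, a difference of 0.10 (SE 0.09, edgeR adjusted p = 0.532). The groups overlapped for each of these genes.

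The 3 genes for the identical c subunit, whose ring turns with the proton flow, varied less than alpha and beta between libraries. Atp5g1 had 49.1, 46.4 and 41.2 CPM in knockouts against 43.2, 48.4 and 45.5 CPM in controls, a difference of 0.00 (SE 0.08). Atp5g2 had 9.77, 12.8 and 10.5 CPM in knockouts against 12.1, 11.7 and 11.8 CPM in controls, a difference of -0.11 (SE 0.11). Atp5g3, the most abundant of the c genes per length at 352 TPM, had 101, 106 and 115 CPM in knockouts against 115, 113 and 110 CPM in controls, a difference of -0.07 (SE 0.06). The median log2 ratio of control replicate 1 over control replicate 3 was 0.03 for the c genes and 0.53 for the 5 subunits of the F1 head.

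**Figure D2:**
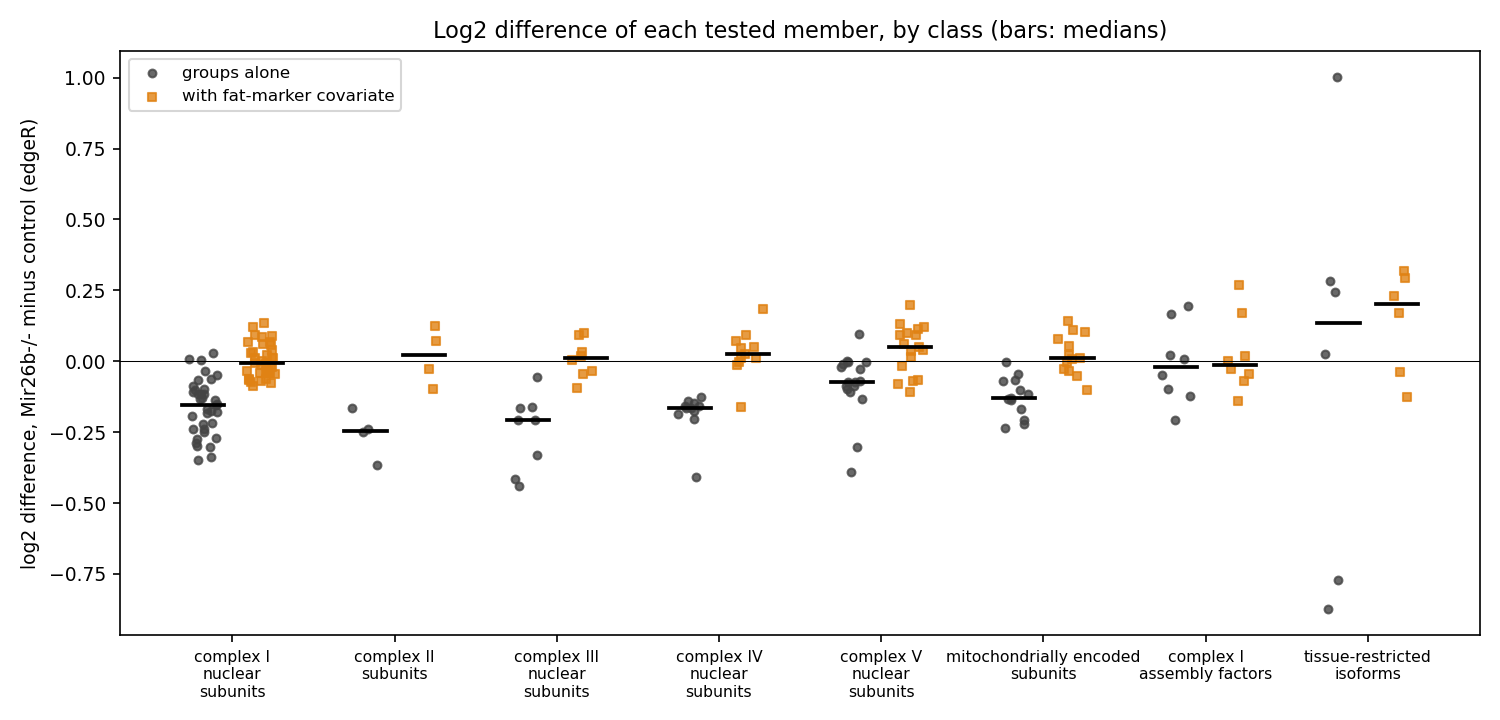
Log2 difference of each tested member, Mir26b-/- over control, by class; dark circles are from the groups alone, orange squares from the fit that also holds the fat-marker level of each library, and bars are class medians. The medians of the 6 subunit classes lie between -0.24 and -0.07 in the first and between -0.01 and 0.05 in the second.

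The mitochondrially encoded subunits are read from one circular genome as long transcripts that are cut into single messages. All 13 were detected at 2283 TPM or more, 13 of 13 had a log2 difference below 0, with a median of -0.13, and 0 passed the test. They held 13.2%, 13.9% and 16.4% of the summed TPM in knockouts, against 18.3%, 15.2% and 14.2% in controls. The nuclear members held 1.89%, 1.94% and 2.53% in knockouts, against 2.69%, 2.40% and 2.08% in controls. The sum of mitochondrial over the sum of nuclear members was 7.00, 7.15 and 6.49 in knockouts and 6.80, 6.32 and 6.86 in controls, and these ranges overlap. Control replicate 1 was the highest library for 13 of 13.

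The complex I genes among them encode the proton-pumping membrane arm. mt-Nd1 had 4307, 4542 and 5154 CPM in knockouts against 5978, 4810 and 4594 CPM in controls, a log2 difference of -0.14 (SE 0.13, edgeR adjusted p = 0.53). mt-Nd2 had 2899, 3052 and 3716 CPM in knockouts against 4568, 3516 and 3192 CPM in controls, a difference of -0.22 (SE 0.16). In both, knockout replicates 1 and 2 were the lowest of the 6 libraries. mt-Nd3 and mt-Nd4 differed by -0.07 (SE 0.15) and -0.17 (SE 0.14). mt-Nd4l had the lowest difference of the 13, at -0.23 (SE 0.12, edgeR adjusted p = 0.256), with 543, 548 and 628 CPM in knockouts against 791, 638 and 592 CPM in controls.

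mt-Nd6 is the one subunit read from the other strand, and its difference was closest to 0. It had 567, 577 and 610 CPM in knockouts against 709, 580 and 470 CPM in controls, a log2 difference of 0.00 (SE 0.15). Its neighbour mt-Nd5 had 2635, 2711 and 2855 CPM in knockouts against 3632, 2912 and 2435 CPM in controls, a difference of -0.13 (SE 0.15). The 2 genes overlap by 14 bases on opposite strands, and the labels do not say that strand was kept. Both spread more widely over the 3 controls than over the 3 knockouts.

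The remaining genes carried the catalytic centres of complexes III and IV and the proton channel of complex V. mt-Cytb, the cytochrome b of complex III, had 6500, 6785 and 7948 CPM in knockouts against 9687, 7729 and 7110 CPM in controls, a difference of -0.21 (SE 0.15). mt-Co1, which holds the oxygen-reducing centre and had the highest CPM of all members, had 15158, 16567 and 18823 CPM in knockouts against 21755, 17784 and 15992 CPM in controls, a difference of -0.14 (SE 0.15). mt-Co2 and mt-Co3 differed by -0.12 (SE 0.15) and -0.04 (SE 0.14). mt-Atp6 and mt-Atp8 differed by -0.10 (SE 0.16) and -0.07 (SE 0.10). These 2 overlap by 43 bases, so reads there cannot be assigned to one of them.

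**Figure D3:**
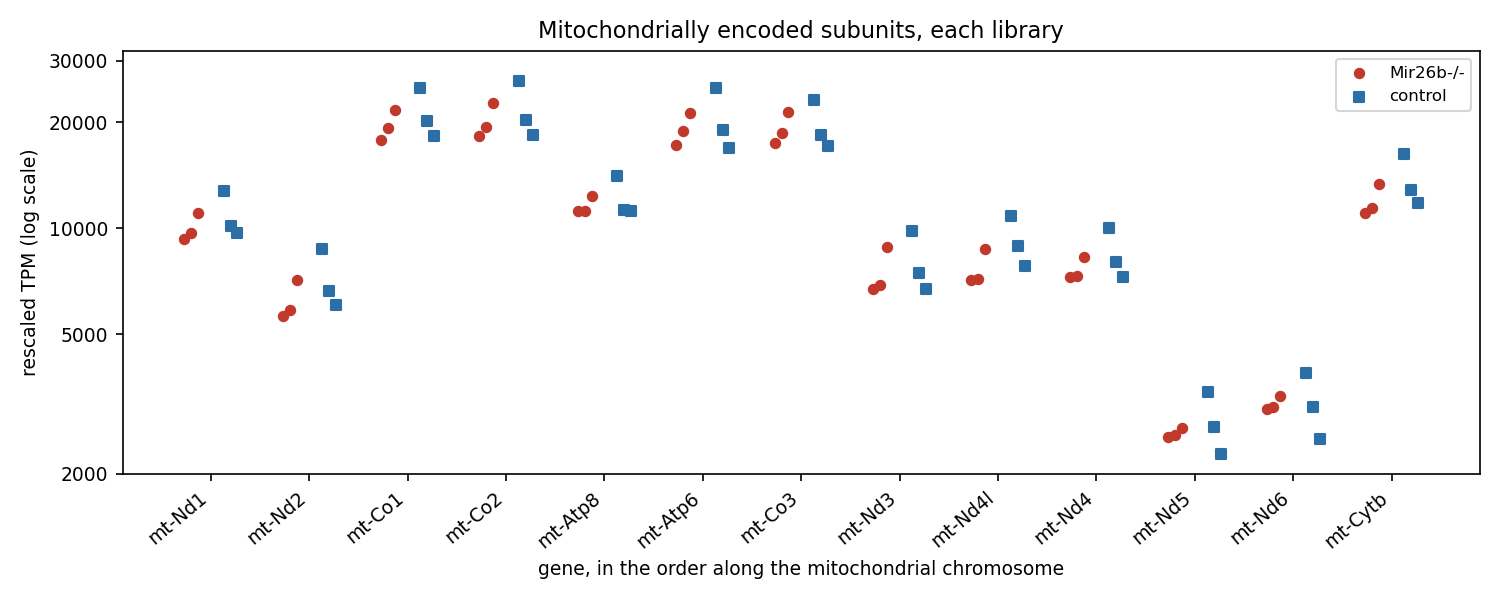
Rescaled TPM (log scale) of the 13 mitochondrially encoded subunits in each library, knockout circles left of control squares, in the order of the genes along the mitochondrial chromosome. Control replicate 1 is the highest point for each of the 13 genes, and the other controls overlap the knockouts.

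Tissue-restricted isoforms of complex IV held the widest spread among the members. Cox8b, the form of subunit 8 of heart, skeletal muscle and brown fat (chromosome 7, 140898945 to 140900446, minus strand, GRCm38), had 10.9, 18.8 and 56.9 CPM in knockouts against 82.9, 51.5 and 24.2 CPM in controls. The gene's log2 difference was -0.87 (SE 0.68, edgeR adjusted p = 0.43). Cox7a1, the form of subunit 7A of the same tissues (chromosome 7, 30184144 to 30186078, plus strand), had 4.70, 6.99 and 25.8 CPM in knockouts against 34.1, 19.9 and 9.95 CPM in controls. This made a log2 difference of -0.77 (SE 0.71, edgeR adjusted p = 0.507). In both genes knockout replicate 3 lay above control replicates 2 and 3. Cox8b was 3.42-fold and Cox7a1 3.43-fold higher in control replicate 1 than in control replicate 3, within 1 group, and in knockout replicate 3 over knockout replicate 1 the folds were 5.21 and 5.50.

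The general partners varied less. Cox8a had 112, 119 and 148 CPM in knockouts against 161, 142 and 119 CPM in controls, a difference of -0.16 (SE 0.15). Cox7a2 had 59.2, 62.5 and 73.7 CPM in knockouts against 78.5, 71.4 and 63.0 CPM in controls, a difference of -0.13 (SE 0.11). The restricted form therefore made up a changing share of its pair. Cox8b made up 16.0%, 23.8% and 43.8% of the summed TPM of Cox8a and Cox8b in knockouts, against 51.1%, 42.6% and 28.8% in controls. Cox7a1 made up 14.4%, 19.6% and 44.6% of the summed TPM of Cox7a1 and Cox7a2 in knockouts, against 49.7%, 38.8% and 25.8% in controls.

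Neither share separated the groups. Ratios were taken of TPM + 1. The log2 ratio of Cox8b to Cox8a differed by -0.92 (-1.47 ± 1.029 in knockouts and -0.56 ± 0.69 in controls, SD, n = 3 each), with a two-sided exact permutation p of 0.3. The log2 ratio of Cox7a1 to Cox7a2 differed by -0.90, with an exact permutation p of 0.3. Of 9 pairs tested, none had an adjusted exact p under 0.514, and 3 libraries against 3 cannot give an exact p below 0.1. The brown fat markers kept the order of these shares within each group, except Dio2 and Zic1. Ucp1, the uncoupling protein that defines brown fat, had 60.4, 89.7 and 437 CPM in knockouts against 600, 270 and 135 CPM in controls.

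**Figure D4:**
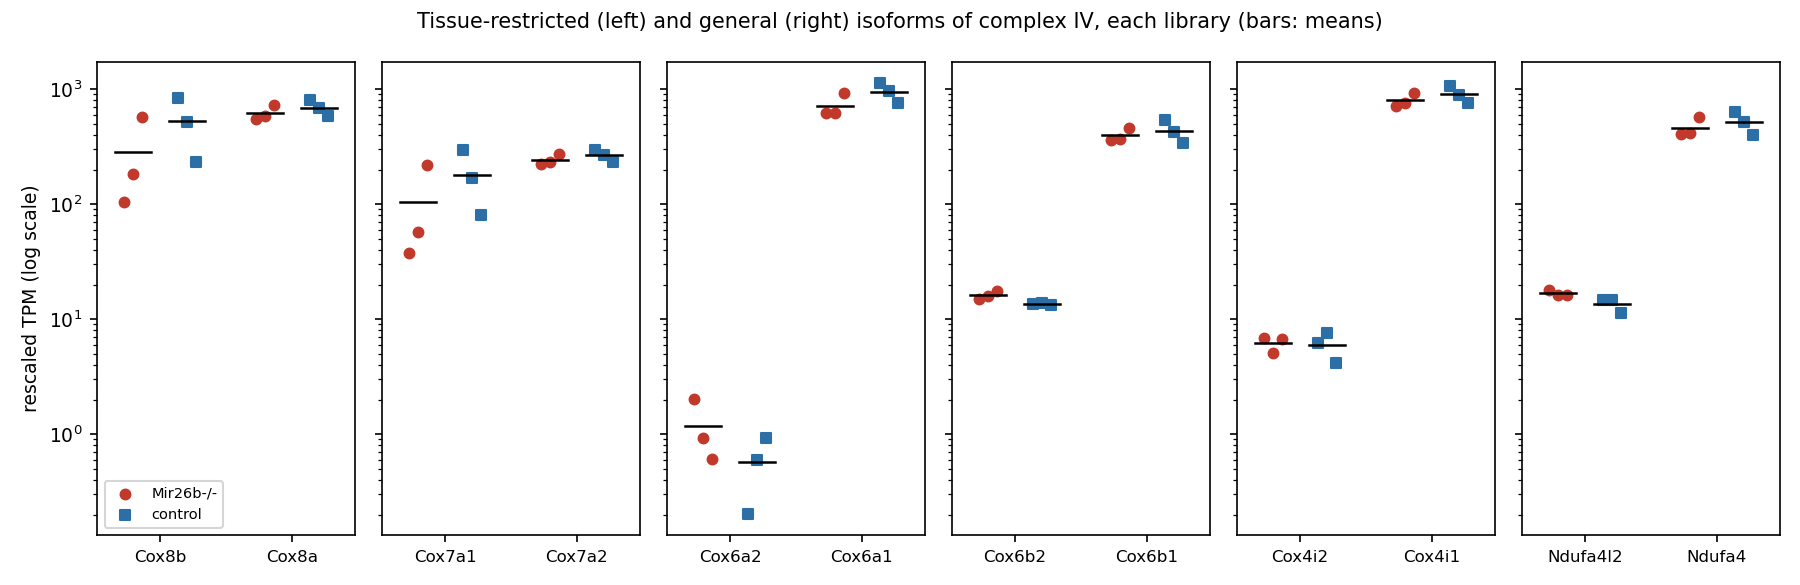
Rescaled TPM (log scale) of 6 tissue-restricted isoforms, each with its general partner to the right, in each library; knockout circles stand left of control squares and bars are group means. Cox8b and Cox7a1 spread over a wide range within each group, and the general forms over a narrow one.

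The other restricted isoforms were low and did not follow this order. Cox6b2, known from testis, had 2.70, 2.89 and 3.13 CPM in knockouts against 2.40, 2.52 and 2.43 CPM in controls, and the groups did not overlap. Its log2 difference was 0.24 (SE 0.13, edgeR adjusted p = 0.245). Ndufa4l2, a hypoxia-induced relative of the complex IV subunit Ndufa4, had 7.84, 7.27 and 7.14 CPM in knockouts against 6.54, 6.61 and 5.15 CPM in controls, also without overlap. The gene's log2 difference was 0.28 (SE 0.13, edgeR adjusted p = 0.189). Its partner Ndufa4 had 96.0, 98.9 and 137 CPM in knockouts against 151, 124 and 96.7 CPM in controls, a difference of -0.16 (SE 0.20).

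Cox4i2, the form of subunit 4 known from lung and from hypoxic cells, had 2.13, 1.59 and 2.10 CPM in knockouts against 1.97, 2.44 and 1.33 CPM in controls, a difference of 0.02 (SE 0.25). Cox6a2, the muscle form of subunit 6A, had 0.561, 0.266 and 0.170 CPM in knockouts against 0.057, 0.173 and 0.266 CPM in controls, a difference of 1.001 (SE 0.63, edgeR adjusted p = 0.333). It rests on few reads, and unlike Cox8b and Cox7a1 it was lowest in control replicate 1. Cox7b2 was at or below 0.608 TPM in every library and was not tested, and Cox8c, like Cox7b2 known from testis, was listed at 0 in all 6. The log2 ratios to Cox4i1, Cox6a1, Cox6b1, Cox7b and Ndufa4 differed by 0.23, 0.85, 0.34, 0.31 and 0.44 for Cox4i2, Cox6a2, Cox6b2, Cox7b2 and Ndufa4l2, each with an exact permutation p between 0.2 and 0.4. For the c genes, the ratios Atp5g1 to Atp5g3 and Atp5g2 to Atp5g3 differed by 0.09 and -0.03 (exact permutation p = 0.6 and 0.8).

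Cox7a2l, also called SCAF1, joins complexes III and IV in supercomplexes, and it had the lowest adjusted p of the members. It had 152, 144 and 153 CPM in knockouts against 135, 132 and 128 CPM in controls. All 3 knockout libraries were above all 3 controls. The log2 difference was 0.18 (SE 0.05, edgeR adjusted p = 0.0691). DESeq2 gave an adjusted p of 0.0252 and edgeR with library size alone 0.0452, so the call depends on the method. Leaving out any one library gave differences between 0.16 and 0.21 and edgeR adjusted p between 0.0595 and 0.214.

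The 8 complex I assembly factors with an Nduf name divided 4 to 4 by sign, with a median of -0.02. Ndufaf4, which helps to assemble the arm of complex I that protrudes into the matrix, had 21.2, 20.7 and 22.8 CPM in knockouts against 27.0, 24.2 and 23.5 CPM in controls, without overlap. This made a log2 difference of -0.21 (SE 0.08, edgeR adjusted p = 0.121). Ndufaf8 had 13.1, 13.2 and 12.8 CPM in knockouts against 11.9, 11.7 and 11.2 CPM in controls, also without overlap, a difference of 0.17 (SE 0.07, edgeR adjusted p = 0.163). The other 6 overlapped between the groups. Assembly factors varied less between control libraries than subunits did, with a median log2 difference of control replicate 1 over control replicate 3 of 0.08, against 0.44 for the general nuclear subunits.

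Of the 17 copies, 2 were tested. Ndufb4c, annotated as a processed pseudogene, had 20.3, 19.5 and 24.8 CPM in knockouts against 24.1, 22.9 and 19.9 CPM in controls, a difference of -0.05 (SE 0.12). Ndufb4, the intact gene, was at 16.8, 17.7 and 20.3 CPM in knockouts against 24.1, 20.9 and 15.2 CPM in controls, and reads may be split between the pair. Cox7c-ps1 was at or below 0.788 CPM in each library. The other copies did not reach the count minimum in enough libraries to be tested.

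Subunits differed between libraries of 1 group as much as between groups. The size of the group difference was smaller than the range of the 3 controls for 93.4% of members, against 56.5% of all tested rows. Control replicate 1 was the highest of the 6 libraries for 83.02% of members, against 15.2% of all rows, and knockout replicate 1 or 2 was the lowest for 67.0%, against 38.4%. Among subunits of general form, control replicate 1 stood highest over control replicate 3 for Uqcrfs1, the Rieske iron-sulfur protein of complex III, at 2.01-fold, and for Cox5a at 1.96-fold. Atp5g1 was the lowest of them, at 0.95-fold.

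**Figure D5:**
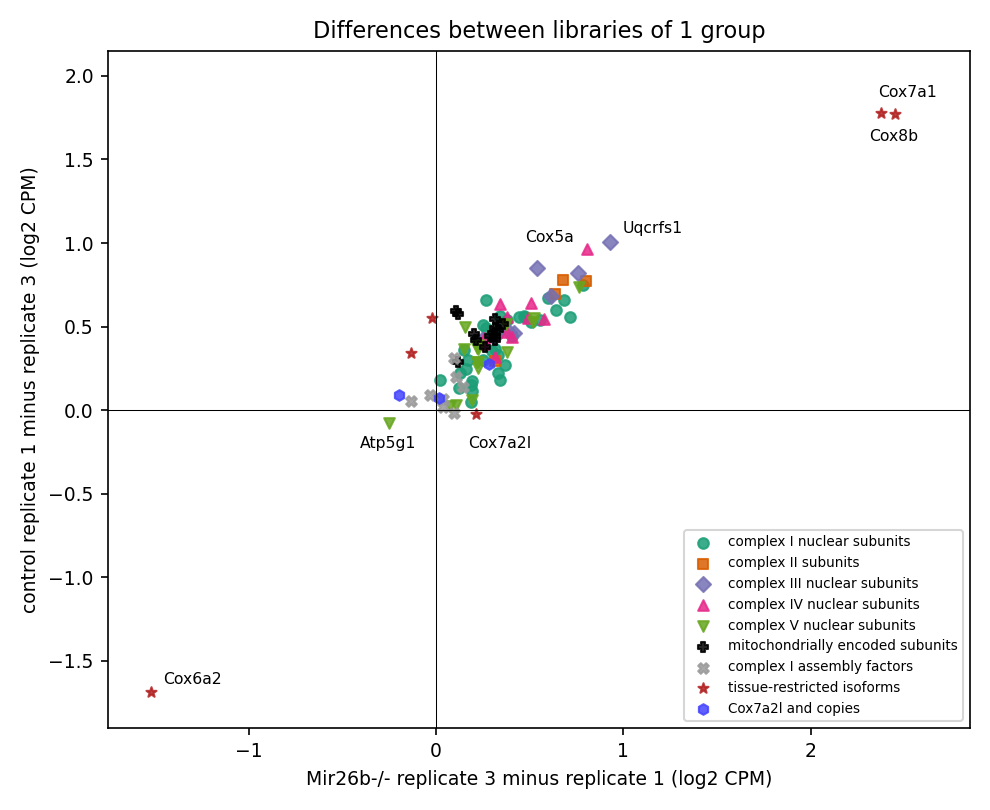
Log2 CPM difference of knockout replicate 3 over knockout replicate 1 (x) against that of control replicate 1 over control replicate 3 (y) for each tested member; symbols show the class. Of 106 points, 97 lie above 0 on both axes, Cox8b and Cox7a1 farthest out at 2.38 and 2.45 on x, while Cox6a2 lies below 0 on both.

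For the 76 general nuclear subunits the median log2 level relative to the control mean was -0.28, -0.22 and 0.07 in knockout replicates 1, 2 and 3, and 0.21, 0.01 and -0.23 in control replicates 1, 2 and 3. The same measure of the 10 brown fat markers was -1.96, -1.56 and 0.48 in knockouts and 0.99, 0.02 and -1.002 in controls. The order of the 6 libraries was the same for both except between knockout replicate 2 and control replicate 3. The 10 white fat markers ran -1.55, -0.81 and 0.38 in knockouts and 0.37, 0.24 and -0.70 in controls. Markers of heart muscle, another tissue rich in mitochondria, were low and did not follow the order of the fat markers. Their summed level was 41.2, 41.4 and 35.4 TPM in knockouts against 25.9, 32.3 and 30.6 TPM in controls. The list had a median log2 difference of 0.66, but Tnnt2, Myh7 and Nppa differed by only -0.02, 0.04 and 0.03. The heart markers Myl2 and Myl3 did not reach the count minimum. Skeletal muscle markers summed to 21.5 TPM in both knockout replicate 3 and control replicate 3, and to at least 18.5 TPM in each library.

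A fit was made with the mean log2 CPM of the 20 fat markers of each library as a covariate. This covariate was -1.51, -1.07 and 0.37 in knockouts and 0.61, 0.13 and -0.74 in controls, so it is itself lower in 2 of the knockout libraries. With it, the median log2 difference of the members was 0.01, with 44 of 106 below 0, and edgeR called 0 members, where it called 1.71% of all rows, 0.897% higher and 0.816% lower. The medians were -0.01 for complex I, 0.02 for complex II, 0.01 for complex III, 0.03 for complex IV, 0.05 for complex V and 0.01 for the mitochondrially encoded subunits. Cox8b differed by -0.13 and Cox7a1 by -0.04, against -0.87 and -0.77 without it. Cox7a2l, at 0.21 (edgeR adjusted p = 0.105), and Ndufa4l2, at 0.32, kept about the size they had without it. Ucp1, among the markers of the covariate, followed the general nuclear subunits over the libraries with a Pearson r of 0.979. Fat content and a group difference in these genes therefore cannot be told apart by this fit.

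Without knockout replicate 3, edgeR called 11 members lower and 0 higher, where it called 28.7% of all rows, 11.4% of them lower. They were the complex I subunits Ndufs7, Ndufab1, Ndufb10, Ndufb3, Ndufv3, Ndufa12 and Ndufa5, with Sdhc, Cox6a1, Cox8b and Cox7a1. Their log2 differences lay between -1.87 for Cox7a1 and -0.22 for Ndufv3. The share of members called lower, 11 of 106, was thus close to that of all rows. Without both control replicate 1 and knockout replicate 3, the library of highest fat marker level in each group, 11 members were again lower, where 8.43% of all rows were, and they included Sdha at -0.44, Atp5b at -0.45 and Atp5a1 at -0.33. The 2 knockout libraries left in both fits are those with the lowest fat markers and the highest macrophage markers, and the part of these in the calls was not tested.

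Other genes of respiration gave few calls. Of 18 tricarboxylic acid cycle genes, which feed NADH and succinate to complexes I and II, 0 were called and 18 had a difference below 0, with a median of -0.39. Of all tested rows 10.3% were called and 50.6% lay below 0. Suclg2, the one of lowest p, encodes a succinyl-CoA ligase subunit and had 73.7, 65.4 and 90.3 CPM in knockouts against 99.6, 87.7 and 93.9 CPM in controls, a difference of -0.29 (SE 0.12, edgeR adjusted p = 0.159). Of 19 electron carriers and shuttles 0 were called, with a median of -0.26. With the fat covariate the median was -0.04 for the cycle genes and -0.03 for the carriers and shuttles. Coq10b, a coenzyme Q binding protein, had 36.3, 38.1 and 31.4 CPM in knockouts against 45.2, 42.9 and 42.5 CPM in controls, without overlap, a difference of -0.30 (SE 0.08, edgeR adjusted p = 0.0587).

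Of 42 assembly factors with other names 0 were called, where 10.3% of all tested rows were, and their median was -0.04. Atpif1, the inhibitor of ATP synthase run in reverse, had 55.1, 53.3 and 47.5 CPM in knockouts against 39.7, 45.1 and 42.9 CPM in controls, without overlap, a difference of 0.29 (SE 0.08, edgeR adjusted p = 0.0594). Pet100, an assembly factor of complex IV, differed by 0.37 (SE 0.11, edgeR adjusted p = 0.0735) and Uqcc2, one of complex III, by 0.22 (SE 0.07). Sdhaf2, which inserts the flavin of complex II, differed by 0.15 (SE 0.07), and Atpaf1, an assembly factor of complex V, by -0.14 (SE 0.07). Of 20 regulators of mitochondrial gene expression 0 were called, where 10.3% of all rows were. Their median was -0.11, and 16 of 20 lay below 0, against 50.6% of all rows. Ppargc1a differed by -1.136 (SE 0.465, edgeR adjusted p = 0.157), with overlap between the groups, and by -0.571 with the fat covariate. Polrmt, the RNA polymerase of mitochondria, had 18.9, 20.8 and 22.1 CPM in knockouts against 24.7, 24.6 and 24.9 CPM in controls, without overlap, a difference of -0.26 (SE 0.07, edgeR adjusted p = 0.062). Over all tested rows the groups did not overlap for 36.1%.

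Of 16 carriers and uncouplers 2 rose, where 6.5% of all rows were called higher. Ucp2, an inner membrane carrier abundant in macrophages, had 135, 161 and 71.5 CPM in knockouts against 45.8, 51.1 and 27.2 CPM in controls, a log2 difference of 1.57 (SE 0.35, edgeR adjusted p = 0.0421). Slc25a13, an aspartate/glutamate carrier, had 4.66, 5.45 and 2.54 CPM in knockouts against 1.91, 1.61 and 1.29 CPM in controls, a difference of 1.39 (SE 0.31, edgeR adjusted p = 0.0421). The macrophage markers given above run in the same order over the knockout libraries, and their part in these calls was not tested. Without any one library other than knockout replicate 3 both calls were lost, with edgeR adjusted p between 0.09 and 0.148 for Ucp2 and between 0.107 and 0.151 for Slc25a13. Those fits called at most 52 of all rows higher, against 1131 with all libraries, so the loss is not particular to these genes. With the fat covariate, where 0.897% of all rows were called higher, edgeR adjusted p was 0.14 for Ucp2, at a difference of 1.35, and 0.137 for Slc25a13, at 1.15.

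Of 16 genes of mitochondrial dynamics and removal 1 fell, where 3.84% of all rows were called lower. Dnm1l, the dynamin-like enzyme that divides mitochondria, had 92.2, 91.2 and 92.5 CPM in knockouts against 110, 103 and 110 CPM in controls. Its log2 difference was -0.23 (SE 0.05, edgeR adjusted p = 0.0381), and the 3 knockout libraries lay within 91.2 to 92.5 CPM. The call was lost without any one library other than knockout replicate 3, with edgeR adjusted p between 0.085 and 0.145. Those fits called at most 22 of all rows lower, against 667 with all libraries, so the loss is not particular to Dnm1l. It was also lost with the fat covariate, at an edgeR adjusted p of 0.0882 and a difference of -0.23, where 0.816% of all rows were called lower. Of 12 hypoxia response genes 0 were called, and Car9, a carbonic anhydrase, had the lowest p at a difference of -0.49 (SE 0.16, edgeR adjusted p = 0.0939).

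The genes outside this set whose log2 CPM followed the mean of the general nuclear subunits most closely were Crat, Mpc2, Dlst, Dld and Glul. Their Pearson r was 0.997 or more over the 6 libraries, which share their preparation and tissue makeup, and is given as a description. Crat, carnitine acetyltransferase, had 62.9, 67.3 and 122 CPM in knockouts against 150, 104 and 71.3 CPM in controls. Mpc2 is a pyruvate carrier subunit, and Dlst and Dld are subunits of the mitochondrial dehydrogenase complexes. Cidea, Ucp1, Adipoq and Ppargc1a had an r of 0.985, 0.979, 0.946 and 0.932. The smooth muscle gene Acta2 had one of 0.404, and the macrophage gene Lyz2 one of -0.58.

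The promoters of the restricted isoforms Cox8b and Cox7a1 and of the general subunits Cox6a1 and Sdha are shown as examples. They do not stand for restricted against general forms. Each is the 250 bases before the RefSeq start (GRCm38.p6), with matches to a searched motif in capitals. The motifs, searched on both strands, were GCGCA, any base, then GCGC for NRF1, CCGGAAG for ETS factors, and AAGGTCA for estrogen-related receptors, factors known to act on respiratory genes. Cox8b (chr7:140900447-140900696, minus strand) and Cox7a1 (chr7:30183921-30184170, plus strand) held none. The promoters of their general partners Cox8a and Cox7a2, not printed, held none either. Cox6a1 (chr5:115348959-115349208, minus strand) held NRF1 and ETS matches, and Sdha (chr13:74350241-74350490, minus strand) NRF1 matches.
Cox8b: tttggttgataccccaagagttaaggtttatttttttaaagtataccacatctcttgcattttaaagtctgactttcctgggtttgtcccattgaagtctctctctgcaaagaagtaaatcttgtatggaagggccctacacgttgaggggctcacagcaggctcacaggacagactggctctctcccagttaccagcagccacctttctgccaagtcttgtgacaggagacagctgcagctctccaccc
Cox7a1: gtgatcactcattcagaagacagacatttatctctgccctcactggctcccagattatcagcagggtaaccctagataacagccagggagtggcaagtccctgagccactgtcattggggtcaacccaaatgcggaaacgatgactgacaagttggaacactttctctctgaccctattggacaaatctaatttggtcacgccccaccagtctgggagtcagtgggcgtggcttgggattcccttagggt
Cox6a1: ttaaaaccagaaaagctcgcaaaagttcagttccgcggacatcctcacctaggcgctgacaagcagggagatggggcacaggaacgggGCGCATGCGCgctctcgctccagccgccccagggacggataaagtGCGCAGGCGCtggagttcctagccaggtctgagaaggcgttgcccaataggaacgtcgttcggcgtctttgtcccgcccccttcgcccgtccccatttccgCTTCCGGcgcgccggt
Sdha: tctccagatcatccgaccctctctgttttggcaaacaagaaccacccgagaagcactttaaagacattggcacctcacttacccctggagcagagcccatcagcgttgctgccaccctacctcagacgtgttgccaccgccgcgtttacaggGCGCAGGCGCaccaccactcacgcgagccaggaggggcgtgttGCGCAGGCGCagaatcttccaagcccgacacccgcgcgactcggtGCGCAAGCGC

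Of the 76 nuclear members with a promoter in the RefSeq table, out of 93 nuclear symbols looked up, 18.4% held the NRF1 motif, against 4.23% of all 27025 promoters of the same length. The ETS motif was in 18.4% of member promoters against 7.83% of all, and the receptor motif in 6.58% against 4.70%. Member promoters had a median GC content of 57.4%, and all promoters one of 52.4%. The median log2 difference was -0.13 for the 14 tested members with the NRF1 motif and -0.13 for the 61 without it, and -0.09 for 14 with and -0.13 for 61 without the ETS motif. A match is a run of letters, not a shown binding site.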

How the data were processed

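RNA of 6 aorta samples was measured by sequencing. The processing used FastQC 0.11.8, Trim Galore 0.6.5, kallisto 0.46.2 and GRCm38, per the submitters' processing notes. How transcripts were summed to genes, and library strandedness, are not given in the sources used here. RNA came from a column kit with an average RIN of 7.0, per the labels. The deposited estimated counts were not whole and were multiples of a constant in each library, which differed between libraries from 0.9004 to 1.0685. They were rounded. The deposited TPM signal had been rescaled by the authors, since its columns sum to 955527 to 1034723.

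edgeR 4.0.16 (R 4.3.3) kept rows by filterByExpr with a minimum count of 10, scaled by TMM and fitted the 3 knockout and 3 control libraries with the quasi-likelihood test. P-values were adjusted by Benjamini-Hochberg over all 17392 rows and called under 0.05. The SE is the log2 difference over the square root of F. Isoform ratios were tested with a two-sided exact permutation test. Alternatives used DESeq2 1.42.0, limma 3.58.1 and other scalings, filters and libraries. Scripts were tested on simulated data. Gene coordinates are GENCODE on GRCm38. All tested members and lists were chosen with earlier results of these data known. Named genes were the mitochondrially encoded ones, isoform pairs, calls, and per complex the 2 most abundant and the 2 of lowest p, the lowest-p or called genes of the other lists and the 5 genes of nearest pattern. Ndufaf8, Sdhd, Cox5a, Uqcrfs1, Ndufb4, the copies and the subunits called with libraries left out were added after their values were seen. So were Ucp1, Cidea, Adipoq, Ppargc1a, Acta2 and Lyz2.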

Additional observations from a re-analysis of the deposited data

How the results depend on the processing

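No member was called under RLE scaling, mitochondrial rows left out of the library sizes, no filter, a filter at a mean log2 CPM of 1, limma, the fat covariate or the replicate block. DESeq2 called 1 member higher and library size alone 1, in both cases Cox7a2l. Leaving out 1 library gave 0 to 11 members lower, and 11 without both control replicate 1 and knockout replicate 3, a choice made after seeing the data. Over all rows, calls higher and lower were 2086 and 1357 with DESeq2, 447 and 252 with limma on log2(TPM + 1), 539 and 280 with a pseudocount of 0.1, 156 and 142 with the fat covariate, 2397 and 1480 without that pair, and 0 to 3051 and 0 to 2028 with 1 library left out. Without control replicate 1 or without control replicate 3 edgeR made 0 calls, and 4056 rows were under 0.05 before adjustment in both fits. The median of the restricted isoforms was 0.13 in the main fit and -0.26 with the filter at a mean log2 CPM of 1. That filter leaves out Cox6a2 and Cox4i2, so the change lies in which genes are counted. With 1 library left out, the log2 ratio difference lay between -0.011 and 0.216 for Atp5g1 to Atp5g3 and between -0.146 and 0.048 for Atp5g2 to Atp5g3. The cause of the other changes was not tested.

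Some signs turned. With the fat covariate 44 of 106 members were below 0, against 92 without it, and the named genes whose sign turned had differences of 0.07 for Cox6b1, 0.013 for Cox7a2, 0.05 for Cox7b, 0.026 for Cox8a, 0.092 for Ndufa4, 0.07 for Sdhb, 0.031 for Uqcr10, 0.093 for Uqcrh, 0.078 for mt-Atp6, 0.007 for mt-Atp8, 0.022 for mt-Co1, 0.055 for mt-Co2, 0.11 for mt-Co3, 0.10 for mt-Nd3, 0.013 for mt-Nd5, 0.14 for mt-Nd6, 0.011 for Ndufa5, 0.069 for Ndufb4, 0.081 for Ndufb4c, 0.123 for Sdhd, 0.005 for Uqcrfs1 and 0.184 for Cox5a. With library size alone they were 0.038 for Atp5g1, 0.003 for mt-Co3 and 0.042 for mt-Nd6. With limma at either pseudocount they were 0.024 for Atp5g1 and 0.019 for mt-Nd6, with the filter at a mean log2 CPM of 1 they were 0.002 for Atp5g1 and 0.002 for mt-Nd6, and mt-Nd6 had 0.015 with the replicate block. Without control replicate 1 and knockout replicate 3 they were 0.02 for Atp5g1, -0.02 for Cox4i2, -0.03 for Ndufa7, 0.02 for mt-Atp8 and 0.12 for mt-Nd6. With 1 library left out, differences spanned -0.061 to 0.062 for Atp5g1, -0.18 to 0.23 for Cox4i2, -0.293 to 0.029 for Cox6b1, -0.347 to 0.006 for Ndufa4, -0.06 to 0.043 for Ndufa7, -0.159 to 0.053 for Uqcrh, -0.216 to 0.071 for mt-Atp6, -0.14 to 0.053 for mt-Atp8, -0.23 to 0.001 for mt-Co1, -0.217 to 0.042 for mt-Co2, -0.135 to 0.093 for mt-Co3, -0.184 to 0.093 for mt-Nd3, -0.26 to 0.036 for mt-Nd5 and -0.14 to 0.16 for mt-Nd6.

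Same-numbered libraries correlated by -0.09, 0.23 and 0.08, and differently numbered ones by -0.21 to 0.12. So few libraries cannot decide whether the numbers mark pairs. The labels do not state pairing, and the numbers were not taken as pairs. With the replicate block 0 members and 1295 rows higher and 700 lower were called. The mitochondrial share of TPM uses no filter, so that alternative has no separate value. Cox6a2 and Cox7c-ps1 were below 1 CPM, and Cox7b2 below 1 TPM, in all libraries, so their values are limited by depth.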
